A study of Homo sapiens with 6 samples.

Results

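ANXA10 and ANXA13 are the annexin genes found by symbol in the authors' deposited table comparing ginkgolic acid with its vehicle in human HCCLM3 cells, 2 of the 403 genes in that table. HCCLM3 is a hepatocellular carcinoma cell line labelled as wild type, and total RNA was sequenced after 24 h in 10 µM ginkgolic acid or in DMSO. Ginkgolic acid is a salicylic acid derivative with a long alkyl chain, found in Ginkgo biloba. Each treatment had 3 libraries, all from the same line, so the results describe 1 cell line at a single dose and time. The labels do not say whether replicates were separate cultures, so the spread between libraries may be technical.

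Annexins are proteins that bind acidic phospholipids, in most members through calcium ions held in a repeated core domain, and so attach to the inner face of the plasma membrane and to vesicles. They act in membrane trafficking, membrane repair and the linking of membrane to actin. ANXA10 is an unusual member whose core repeats have lost most calcium-binding residues. It is known as a marker of gastric-type epithelium and has been studied in liver cancer. ANXA13 is regarded as the family's ancestral vertebrate member, is made mainly in intestinal and kidney epithelium, and has a myristoylated amino terminus that helps it bind membranes during apical transport.

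Both annexin transcripts were less abundant with ginkgolic acid, at very different levels of expression. ANXA10, among the most abundant transcripts of the table, stood at 46.7% of its DMSO mean. ANXA13, close to the table's lower end, stood at 20.5% of its DMSO mean. The values are read counts divided by a size factor of each library, called normalised read counts here.

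These differences are descriptions, because the table was itself selected on this contrast. In the authors' deposited table all 403 genes passed limits of 0.05 on the adjusted p and of 1 on the size of the log2 fold change, and 150 were lower with ginkgolic acid. The adjusted p-values imply that the authors tested 16104 genes, of which 2.5% entered the table and 0.931% entered it as lower genes. In the limma fit over the table's genes, 37.2% were called lower at an adjusted p under 0.05, and both annexins were among them. Nothing is read from these shares, since the same contrast chose the genes. Reads over the table's genes ranged from 67006 to 98627 per library, with the 3 ginkgolic acid libraries above the 3 DMSO libraries. How deeply the libraries were sequenced in all is unknown.

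ANXA10 (ENSG00000109511) lies on chromosome 4 from 168092515 to 168187690 on the plus strand of GRCh38. GENCODE release 29 lists 3 transcripts, of which 1 is protein-coding, with 12 exons and 324 codons, and the others keep introns. An antisense transcript, AC116634.1, overlaps 20817 bases of the gene body from the other strand, but 0 of the 1812 exonic bases of ANXA10 lie within its exons. Of the 2 annexins, ANXA10, the more abundant, was found in the RefSeq promoter table (GRCh38.p14). The 228 bases upstream of the start that the deposited table gives are shown. They span chr4:168092287-168092514, plus strand, with the match to the TATA box motif TATAAA in capitals.
ANXA10 upstream: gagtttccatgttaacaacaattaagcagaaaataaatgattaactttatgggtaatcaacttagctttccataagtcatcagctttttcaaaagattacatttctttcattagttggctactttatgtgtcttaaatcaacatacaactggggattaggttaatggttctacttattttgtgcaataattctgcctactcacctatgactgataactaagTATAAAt

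The match to TATAAA begins 7 bases before the start that the deposited table gives and 29 bases before the RefSeq start at 168092537. On either strand, 10.3% of 35116 RefSeq promoter windows of the same length hold TATAAA. Each window was cut at the same place relative to its RefSeq start as that of ANXA10. The bases directly before each RefSeq start were therefore left out. The half-site of hepatocyte nuclear factor HNF1, written GTTAAT, matched 2 times, and 5.95% of windows hold at least 1 match. The windows were not matched to this one for base composition, on which all these shares depend. The core motif of the aryl hydrocarbon receptor, GCGTG, and that of AP-1, TGANTCA, had 0 matches in this window, and 29.8% and 6.15% of all windows hold them. The motifs were chosen with the expression results known, and none overlaps another here. A match is a run of letters and not a measured binding site, and the data hold no measurement at the promoter.

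In the DMSO libraries ANXA10 had 4079, 4269 and 4352 normalised read counts. In the ginkgolic acid libraries it had 2190, 1997 and 1744. The groups did not overlap, and the lowest DMSO library was 1.86 times the highest ginkgolic acid library. Non-overlap sets no gene of this selected table apart, since it held for 396 of its 403 genes (98.3%). The means were 4234 ± 140.3 in DMSO and 1977 ± 223.6 in ginkgolic acid (SD, n = 3 each), a 2.14-fold lower level with the compound. On the log2(normalised read count + 1) scale the difference was -1.10 (limma SE 0.08), and the authors' deposited table gave a log2 fold change of -1.10 with an adjusted p = 2.50e-54, a value that took part in choosing the gene.

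The ANXA10 difference rested on 12914 DMSO reads and 5892 ginkgolic acid reads. The ratio of these reads after scaling was 2.16, with an exact 95% binomial interval of 2.09 to 2.23. That interval covers counting error only. The libraries varied more than counting alone would give, most in the treated group, where the coefficient of variation was 11.3% against a counting value of 2.26%. In DMSO it was 3.31% against 1.52%.

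**Figure D1:**
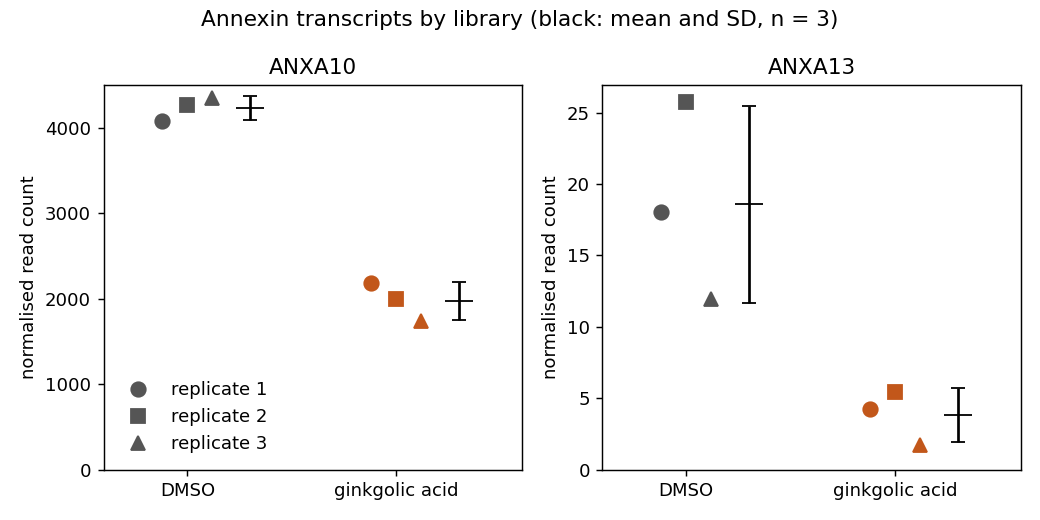
Normalised read counts of ANXA10 (left) and ANXA13 (right) in each DMSO (grey) and ginkgolic acid (orange) library, with symbols for the replicate numbers and the mean and SD of 3 libraries in black. In both genes all 3 ginkgolic acid libraries lie below all 3 DMSO libraries, a separation shown in either direction by 396 of the 403 genes, from 1744 to 2190 against 4079 to 4352 for ANXA10 and from 1.76 to 5.43 against 11.98 to 25.7 for ANXA13.

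By mean level ANXA10 ranked number 4 of the 403 genes, and per kilobase of exonic sequence it ranked number 2. Among the 150 lower genes only HNRNPM, an RNA-binding splicing regulator named here after its value was seen, had a higher mean, 3351 normalised read counts over 6 libraries against 3105. The size of the ANXA10 difference was modest for the table. Ranked by the authors' deposited table from the most negative log2 fold change, it was number 126, 24 lower genes had a smaller fall, and the lower gene nearest the selection limit stood at -1.01. The median of the lower genes was -1.30. By p-value in the authors' deposited table, ANXA10 ranked number 12.

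ANXA13 (ENSG00000104537) lies on chromosome 8 from 123680794 to 123737407 on the minus strand of GRCh38, and no other gene in GENCODE release 29 overlaps it. The annotation lists 6 transcripts, 3 of them protein-coding. The longer coding forms have 12 exons with 357 codons and 11 exons with 316 codons. The deposited values are per gene, over 3806 exonic bases, and do not separate these forms.

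ANXA13 had 18.0, 25.7 and 11.98 normalised read counts in the DMSO libraries. It had 4.24, 5.43 and 1.76 in the ginkgolic acid libraries. These are few reads: 18, 27 and 12 reads in DMSO and 4, 5 and 2 reads in ginkgolic acid. As in 98.3% of the table's genes, the groups did not overlap, and the lowest DMSO library was 2.21 times the highest ginkgolic acid library. The means were 18.6 ± 6.90 and 3.81 ± 1.87 (SD, n = 3 each), a 4.88-fold lower level with ginkgolic acid.

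The size of the ANXA13 difference is loosely fixed. The 57 DMSO reads and 11 ginkgolic acid reads gave a scaled ratio of 5.10 with an exact 95% binomial interval of 2.65 to 10.8, for counting error only. Its spread within the treated libraries, a coefficient of variation of 49.2%, was near the 52.2% that counting alone gives, while in DMSO it was 37.1% against 22.9%. On the log2(normalised read count + 1) scale the difference was -2.05 (limma SE 0.47). The authors' deposited table gave -2.32 with an adjusted p = 0.00494, which took part in choosing the gene. The scale with 1 added understates changes of low counts. With 5 added in place of 1 the ANXA13 difference was -1.40.

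Within the table ANXA13 was the reverse of ANXA10 in rank. It ranked number 386 by mean and number 380 per kilobase, but number 6 by the size of its fall in the authors' deposited table. The 30 lower genes with a mean under 20 normalised read counts had log2 fold changes from -2.49 to -1.26, with a median of -1.59. By p-value ANXA13 ranked number 256.

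**Figure D2:**
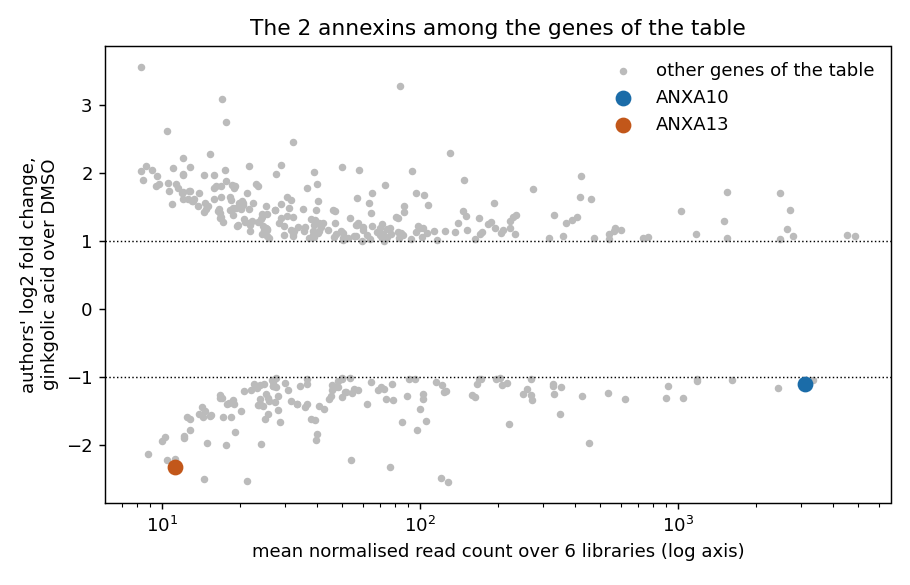
Log2 fold change of ginkgolic acid over DMSO in the authors' deposited table against the mean normalised read count over 6 libraries (log axis), 1 point per gene for 403 genes, with dotted lines at the selection limits of 1 and -1. ANXA10 lies at the far right near the lower limit (mean 3105, log2 fold change -1.10), and ANXA13 lies at the far left among the largest falls (-2.32).

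Per kilobase, ANXA10 had a level of 2336 ± 77.4 normalised read counts in DMSO and ANXA13 had 4.88 ± 1.81 (SD, n = 3 each). With ginkgolic acid the levels were 1091 ± 123.4 for ANXA10 and 1.001 ± 0.493 for ANXA13. The ratio of the means, ANXA10 over ANXA13, was 478.7 in DMSO and 1090 with ginkgolic acid. These lengths join the exons of all annotated forms, 1812 bases for ANXA10 and 3806 for ANXA13. The longest coding forms have 1417 and 1588 bases, and with those lengths the ratios would be smaller. Library by library this ratio was 475.5, 348.4 and 763.2 in DMSO and 1085, 772.5 and 2087 with ginkgolic acid. The ranges of the groups were close to touching, and the highest ratio came from the library with 2 ANXA13 reads. This ratio derives from the contrast that chose both genes, and it was not tested.

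Both annexins were lowest in ginkgolic acid replicate 3, the library with the most reads over the table. In the DMSO libraries they did not share an order: replicate 1 was lowest for ANXA10 and replicate 3 for ANXA13. Without ginkgolic acid replicate 3 the log2 difference was -1.02 for ANXA10 and -1.69 for ANXA13. With any single library left out, the difference ran from -1.18 to -1.02 for ANXA10 and -2.32 to -1.69 for ANXA13. Both stayed lower with ginkgolic acid each time.

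**Figure D3:**
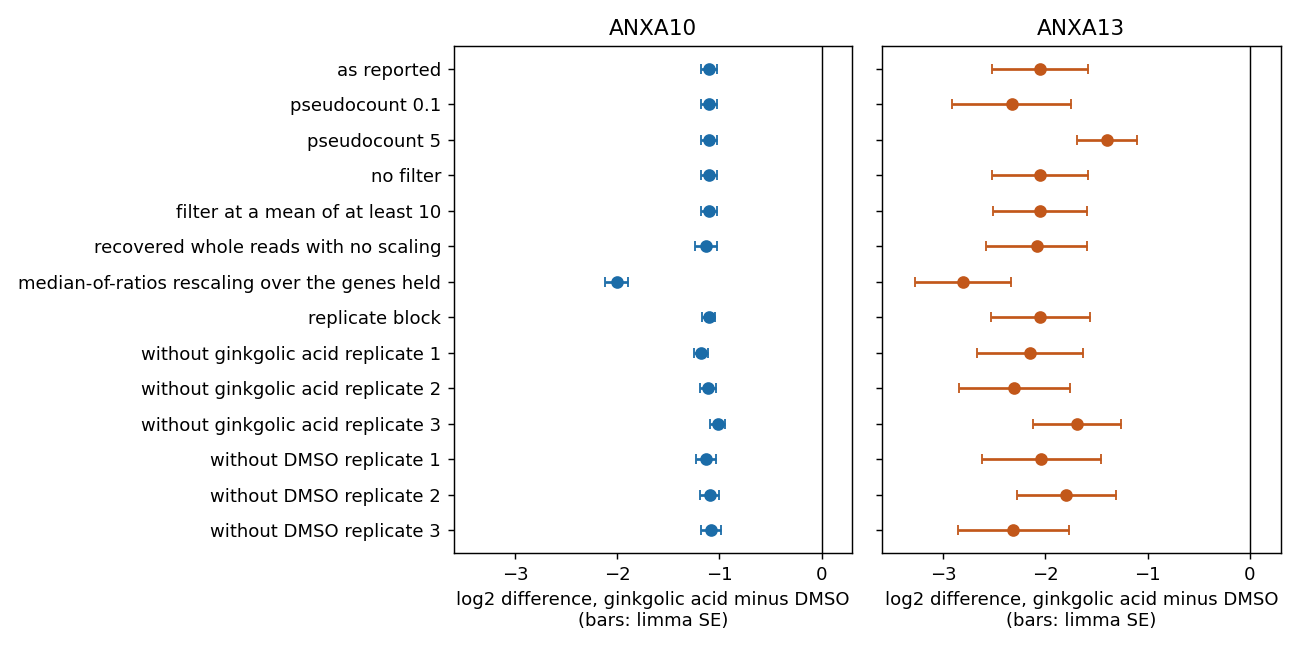
Log2 difference of ANXA10 (left) and ANXA13 (right), ginkgolic acid minus DMSO, on the log2(normalised read count + pseudocount) scale, as reported and under each alternative setting; bars are limma standard errors and the vertical line marks 0. All points lie below 0. Over all settings they run from -2.81 to -1.40 for ANXA13 and from -2.01 to -1.02 for ANXA10. The lowest point of each gene is the value under median-of-ratios rescaling.

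Across the 6 libraries the log2 values of ANXA10 were most like those of KYNU, SERF1B and ACOX2, with Pearson r = 0.998, 0.997 and 0.996. KYNU encodes kynureninase, an enzyme of tryptophan breakdown, and had 3381 ± 191.1 normalised read counts in DMSO and 1509 ± 142.6 in ginkgolic acid (SD, n = 3 each), 2.24-fold lower beside the 2.14-fold of ANXA10; 122 of its 17600 exonic bases overlap a pseudogene. ACOX2, a peroxisomal oxidase of branched-chain fatty acid and bile acid side chains, went from 224.6 ± 18.4 to 93.6 ± 9.67. SERF1B went from 38.4 ± 2.46 to 9.79 ± 1.64 and has a near-identical copy, SERF1A, so its reads are uncertain. All 3 had their lowest value in ginkgolic acid replicate 3, as ANXA10 did.

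ANXA13 was most like AL359183.1, TP53I3 and KLRC2, with r = 0.987, 0.981 and 0.975. AL359183.1 is an unverified transcript that lies within SLC29A3 on the same strand, so some of its reads may belong to that gene. It went from 48.8 ± 5.24 to 24.0 ± 4.90 normalised read counts. TP53I3, a quinone oxidoreductase first described as a p53 target, went from 106.0 ± 11.5 to 49.7 ± 9.60, and 80 of its exonic bases overlap FAM228B. KLRC2, a receptor known from natural killer cells, went from 127.8 ± 9.57 to 63.2 ± 7.85, and it overlaps the annotated genes KLRC1 and AC068775.1 on the same strand. The falls of these 3 genes, 2.03-fold, 2.13-fold and 2.02-fold, were smaller than the 4.88-fold of ANXA13.

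Such correlations mostly restate the gap between the treatments, since the libraries fall into 2 separate groups and the table holds genes chosen for that gap. Over the other 149 lower genes the median r was 0.938 with ANXA10, and 100 genes were above 0.9. With ANXA13 the median was 0.869, and 46 genes were above 0.9. ANXA10 and ANXA13 correlated with each other at r = 0.933, which ranked ANXA13 number 82 among the genes like ANXA10 and ANXA10 number 24 among those like ANXA13.

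**Figure D4:**
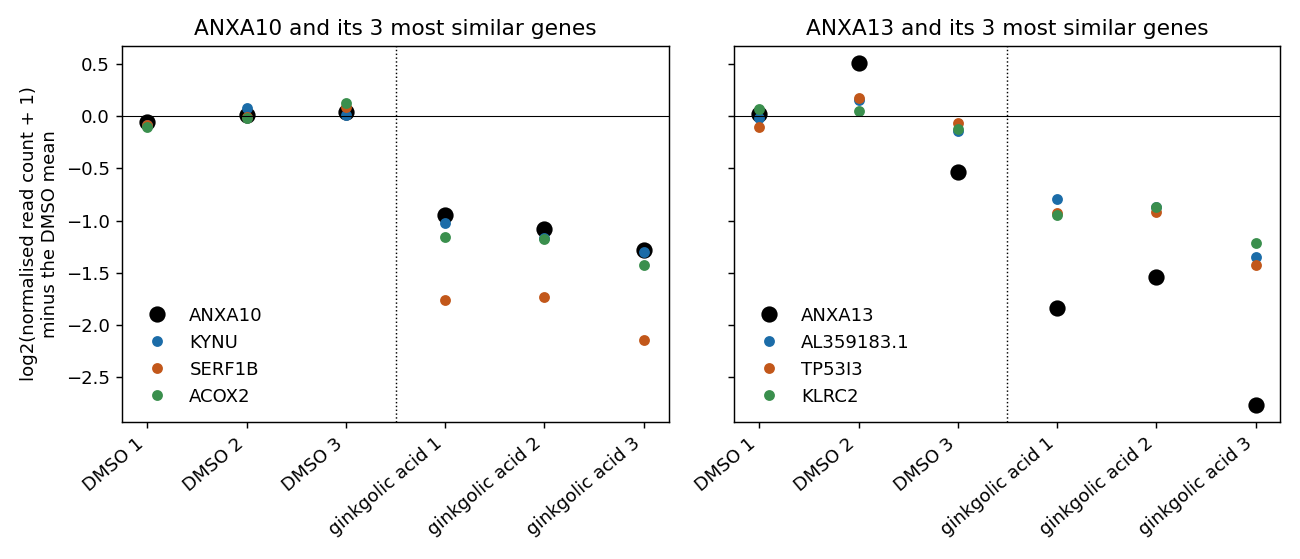
Log2(normalised read count + 1) in each library minus the gene's DMSO mean, for ANXA10 with KYNU, SERF1B and ACOX2 (left) and for ANXA13 with AL359183.1, TP53I3 and KLRC2 (right); the dotted line separates the treatments. ANXA10, KYNU and ACOX2 lie close together in every library, whereas ANXA13 lies below its 3 most similar genes in all ginkgolic acid libraries.

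Of the 13 annexins looked for, ANXA10 and ANXA13 were in the table, and both were lower; the median of their log2 fold changes, from the authors' deposited table, was -1.71. The other 11 annexins were not analysed here, and their absence from a table of selected genes does not show that they were unchanged. Of 15 annexin partners, among them S100A10 and S100A11, the small calcium-binding proteins that pair with ANXA2 and ANXA1, 0 were in the table. Of 25 other genes listed for calcium-dependent membrane binding and exocytosis, 1 was: CPLX2, a complexin that binds the SNARE fusion machinery rather than calcium. It had 720.2 ± 74.2 normalised read counts in DMSO and 185.9 ± 18.7 in ginkgolic acid (SD, n = 3 each), 3.87-fold lower. These lists are not complete. SYT8, a synaptotagmin gene named here after its value was seen, was in the table (log2 fold change -1.69) but on no list. Over all tested genes, 2.5% entered the table.

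The lists drawn up for the epithelia known for these annexins are not complete, and each had 1 gene in the table. Over all tested genes, 2.5% entered it. Of 18 gastric-type epithelial genes, TFF2 alone was in the table. TFF2, a trefoil peptide secreted with gastric mucus, was higher, opposite to both annexins. Its normalised read counts were 17.0, 21.9 and 22.0 in DMSO and 46.6, 64.1 and 29.8 in ginkgolic acid. Of 21 genes listed for intestine and kidney tubule, SLC9A4 alone was in the table. SLC9A4, a sodium-proton exchanger, was lower, as both annexins were. Its normalised read counts were 47.0, 74.4 and 65.9 in DMSO and 21.2, 7.60 and 20.2 in ginkgolic acid. With 1 gene each, these lists show no direction for an epithelial type. The listed genes were not checked for being made in only 1 epithelium, so TFF2 and SLC9A4 are not a contrast between epithelia.

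Of 25 hepatocyte genes, 2 were in the table, which 2.5% of all tested genes entered. ALB, which encodes albumin, had 58 DMSO reads and 15 ginkgolic acid reads over 3 libraries each, and its lowest library was ginkgolic acid replicate 3 with 1 read. CYP2E1, a cytochrome P450 of the liver, was higher, from 9.48 ± 1.77 to 24.3 ± 0.350 normalised read counts, and 2064 of its 9621 exonic bases overlap SYCE1. ALB was also the only one of 7 hepatocellular markers in the table, so the labelled cell type could not be checked further. Of the 14 markers of fibroblasts, leukocytes and endothelium, 0 were in the table. Whether other cell types were present was not tested.

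Of the table's genes, KLHL38 alone lies within 1 Mb of either annexin. KLHL38, a kelch-family gene, lies 27.8 kb from ANXA13 on the same chromosome and strand, with its annotated start towards the end of ANXA13. It was higher where ANXA13 was lower, at 11.01, 20.97 and 13.98 normalised read counts in DMSO and 39.2, 29.3 and 34.2 in ginkgolic acid. The whole of KLHL38 lies within the antisense transcript AC090193.1, with 0 shared exonic bases. ANXA10 had no such neighbour in the table. Of the 13 table genes on the chromosome of ANXA10, 7 were lower, and of the 18 on that of ANXA13, 9 were lower. Among all 403 genes, 150 were lower (37.2%), and neither chromosome was tested against that share.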

How the data were processed

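The submitters' processing notes list CASAVA (1.8), fastp, HISAT2 (2.0.5), featureCounts (1.5.0-p3), DESeq2 (1.20.0) and build hg38. Settings, strand use included: not given in the sources used here. A table of 403 genes was deposited, with the authors' log2 fold change, p-value and adjusted p-value, and a gene length, per the file headers. The authors deposited its per-library values as a signal whose unit is unstated. They were whole multiples of 1 step in each library (tolerance 1e-06), as counts over a size factor would be, and the multiples are called reads. The deposited FPKM-headed table held the same values within 4.64e-08 and no FPKM. Positions of all 403 genes matched GENCODE release 29.

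Log2(value + 1) was fitted with limma 3.58.1 (R 4.3.3) with an intensity trend, on genes with a mean of at least 1. Adjustment was Benjamini-Hochberg over 403 genes, with a threshold of 0.05. The code was also run on simulated data that, unlike this selected table, held unchanged genes. That run checked the code and does not give error rates for this table. Intervals of read ratios are exact binomial (scipy 1.17.1, Python 3.11.15). The named genes are both annexins, table members of 6 gene lists and the marker list, the 3 genes most correlated with each annexin, and table genes within 1 Mb. Members and lists were chosen with earlier results of these data known. Alternatives changed the pseudocount, filter, scaling, variance prior, block and libraries.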

Additional observations from a re-analysis of the deposited data

How the results depend on the processing

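Both annexins were lower with ginkgolic acid under every alternative run, which the choice of the genes largely fixed in advance. Median-of-ratios rescaling over the table's genes moved the median log2 difference by -0.87, because it centres the libraries on selected genes. It gave -2.01 for ANXA10 and -2.81 for ANXA13, and 61 genes called higher and 150 lower, against 253 and 150 on the authors' scaling. The higher genes TFF2, KLHL38 and CYP2E1 were no longer past the limma threshold under it, at 0.24 (SE 0.30, adjusted p = 0.462), 0.29 (SE 0.31, adjusted p = 0.404) and 0.44 (SE 0.33, adjusted p = 0.249). No named gene changed sign under any alternative run. A pseudocount of 5 gave -1.40 for ANXA13. With a block for replicate number the annexin differences were again -1.10 (SE 0.06) and -2.05 (SE 0.49), with 253 genes higher and 150 lower. Same-numbered libraries deviated from their group means with correlations of -0.03, 0.00 and -0.07 across genes, so pairing is not shown. Without each library in turn, 250 to 253 genes were called higher and 148 to 150 lower. The planned edgeR test on recovered reads was not run. With 11 ANXA13 reads in the treated libraries, the size of its change is loosely fixed.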
